A study of Mus musculus with 6 samples.

Results

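The GIMAP genes encode the GTPases of immunity-associated proteins, and 8 of them were followed here: Gimap1, Gimap3, Gimap4, Gimap5, Gimap6, Gimap7, Gimap8 and Gimap9. They were taken by gene name from the authors' deposited comparison and matched by Ensembl identifier to the raw counts, which gave 8 of the 46078 genes of the count table and 8 of the 15138 genes of the comparison. The family was selected on the difference between knockout and wild type in these same libraries, so its values for that difference are a description, with no test of the family. RNA was sequenced from the colon epithelial cell fraction of mice at 2 months of age, in 3 wild type libraries and 3 Lingo3-/- libraries. All mice were kept under naive conditions. LINGO3, the product of Lingo3, is a membrane protein of the leucine-rich repeat class. The fraction is made of the cells that a wash with EDTA, or with EDTA and DTT, takes off the tissue, and it was not sorted for epithelial cells. Both agents stand in the label of wild type replicate 1, EDTA alone in the other 5, and both again in the protocol common to all 6. The labels give neither strain nor sex, nor the allele by which Lingo3 was removed. Separate animals are not stated for the libraries, so p-values reflect nothing beyond the variation among these samples, which may be technical.

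GIMAP proteins share a nucleotide-binding domain of the AIG1 type and sit on membranes of the endoplasmic reticulum, Golgi, mitochondria, lysosomes or lipid droplets, depending on the member. They are best known from lymphocytes, where loss of single members shortens the life of resting T cells and, for some members, of B cells. The colon epithelium holds intraepithelial lymphocytes between its cells, so an epithelial wash can carry lymphocyte transcripts. Gimap5 is the member whose loss in the BB rat causes a lack of T cells, and in the mouse its loss brings lymphopenia and colitis. Gimap3 is a near copy of Gimap5, Gimap1 is needed for mature T and B cells in the mouse, and Gimap6 binds a GABARAP protein of the autophagy machinery. Gimap4 has been tied to the timing of T cell death, human GIMAP7 stimulates the GTPase activity of GIMAP2, and Gimap8 is the largest protein of the family.

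The part of the coding sequence that binds the phosphates of GTP is shown for every member, since it is what makes the genes 1 family and where near-identical copies can be seen. The stretches were read from GENCODE M21 transcripts of GRCm38 as the 24 bases that encode the P-loop pattern of GTPases, a glycine, 4 residues of any kind, glycine, lysine and then serine or threonine. Capitals mark the last 3 codons, for glycine, lysine and serine or threonine.
Gimap1: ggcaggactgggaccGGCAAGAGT
Gimap3: ggcaaatctggctgcGGTAAAAGC
Gimap4: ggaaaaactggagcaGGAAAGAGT
Gimap5: ggcaaatctggctgcGGTAAAAGC
Gimap6: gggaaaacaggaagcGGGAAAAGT
Gimap7: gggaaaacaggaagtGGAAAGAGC
Gimap8 match 1: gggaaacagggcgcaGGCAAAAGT
Gimap8 match 2: gggaagcgtggtgttGGGAAAAGT
Gimap8 match 3: ggaaggagtggggctGGAAAGAGT
Gimap9: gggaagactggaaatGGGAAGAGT
The 8 members held 10 such stretches, 1 in each gene except Gimap8 with 3. Of the 24 positions, 11 had the same base in all 10 stretches. Gimap3 and Gimap5 had the same 24 bases, and over their whole coding sequences they were 90.4% identical. The next closest pair, Gimap7 and Gimap9, was 66.6% identical and the most distant, Gimap1 and Gimap9, 55.7%. The coding sequences ran from 873 bases in Gimap9 to 984 in Gimap4, with 2064 in Gimap8. At a window of 50 bases, 7.52% of the stretches in the exons of Gimap3 also occurred in Gimap5 and 4.53% of those of Gimap5 in Gimap3, so the split of reads between this pair is uncertain. No window of this length was shared between any other members.

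The genes lie in 1 cluster of 124 kb on chromosome 6 of GRCm38 (chr6:48647234-48770851). In order along the chromosome they are Gimap8 (chr6:48647234-48660875), Gimap9 (chr6:48676129-48679114), Gimap4 (chr6:48684549-48692060), Gimap6 (chr6:48701582-48708225), Gimap7 (chr6:48718621-48724636), Gimap1 (chr6:48739054-48743795), Gimap5 (chr6:48746197-48754210) and Gimap3 (chr6:48764464-48770851). Gimap6 and Gimap3 are on the minus strand and the other 6 on the plus strand. An annotated readthrough gene, Gm28053, shares 6.44% of the exon bases of Gimap1, 3.69% of Gimap5 and 3.48% of Gimap7 on the same strand, and it had 0 to 3 counts per library. An antisense gene, Gimap1os, covers part of Gimap1, of whose exon bases 36.0% lie under another gene on either strand. The libraries were stranded but the strand setting of the counting is not given in the sources used here, so reads of Gimap1 and Gimap1os may not be fully separated.

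The 250 bases upstream of the RefSeq start (GRCm38.p6) are printed for the most abundant member per length, Gimap4, the member with the largest difference, Gimap6, and the member with the smallest, Gimap9. Capitals mark matches to the ETS letters AGGAAG or the RUNX letters TGTGGT on either strand.
Gimap4 (chr6:48684328-48684577, plus strand): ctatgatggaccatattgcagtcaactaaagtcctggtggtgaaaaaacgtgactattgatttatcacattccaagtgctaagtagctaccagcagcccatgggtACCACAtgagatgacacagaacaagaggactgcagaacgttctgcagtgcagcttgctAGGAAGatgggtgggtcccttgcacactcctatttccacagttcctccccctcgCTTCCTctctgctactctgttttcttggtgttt
Gimap6 (chr6:48708245-48708494, minus strand): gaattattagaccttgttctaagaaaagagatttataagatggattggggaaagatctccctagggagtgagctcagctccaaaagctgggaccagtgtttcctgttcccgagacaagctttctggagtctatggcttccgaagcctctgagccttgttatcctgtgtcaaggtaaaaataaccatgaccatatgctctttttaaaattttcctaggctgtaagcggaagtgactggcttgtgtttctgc
Gimap9 (chr6:48675885-48676134, plus strand): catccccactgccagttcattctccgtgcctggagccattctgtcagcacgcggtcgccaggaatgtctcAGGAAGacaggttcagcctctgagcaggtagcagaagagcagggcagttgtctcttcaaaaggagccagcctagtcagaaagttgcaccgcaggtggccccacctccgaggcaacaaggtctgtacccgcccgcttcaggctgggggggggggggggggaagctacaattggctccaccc
All 8 members had an entry, with 9 upstream windows in all because Gimap8 has 2, which overlap each other. On either strand the ETS letters AGGAAG occurred in 7 of the 9 windows, against 29.5% of 32851 windows of all genes. These were windows of 7 of the 8 members, all but Gimap6. Only these letters were searched for ETS factors, so the cggaag in the printed window of Gimap6 was not counted. Unlike for the other windows, the bases that follow the window of Gimap6 were not matched to a GENCODE transcript of the gene. The RUNX letters TGTGGT occurred in 3 members, Gimap1, Gimap4 and Gimap7 (14.05% of all windows), and the KLF letters CCACCC in 5 (28.1%). The letters CTTTGA for TCF and LEF factors (13.8% of all windows), AGATAA for GATA factors (9.99%) and TGGGAA for Ikaros factors (21.6%) were in no member's window. The letters GTAAACA for FOXO factors occurred in Gimap3 alone (3.17% of all windows), CAGGTG for E proteins in Gimap9 alone (17.2%) and TATAAA in Gimap6 alone (12.4%). The searched letters can overlap each other. The windows held 1 to 8 CpG pairs, against a median of 6 over all genes, and 43.6 to 61.2% G and C, against a median of 52.4%. A match is a stretch of letters and not a measured site.

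Counts summed over genes came to 25010618, 28029583 and 25151356 in wild type and to 17200931, 16762320 and 11868000 in knockout, in the order of replicates 1, 2 and 3 that all values per library keep. Transcripts of the mitochondrial genome took 45.3 to 48.4% of the counts in wild type and 34.7 to 36.3% in knockout, so that depth, this share and the genotype cannot be told apart. Levels are given in CPM, which sets each count against the size of its library after TMM factors have adjusted that size for composition, and 3 counts corresponded to 0.113 to 0.240 CPM. The targeted gene, Lingo3, had 3, 3 and 1 counts in wild type and 2, 0 and 1 in knockout, at the limit of detection in both, so it does not check the genotype labels. Of 16856 genes tested with edgeR's quasi-likelihood test, 1007 were lower in knockout (5.97%) and 1589 higher (9.43%) at a Benjamini-Hochberg adjusted p under 0.05. Over all genes tested the median log2 fold change was -0.03. Scaling by library totals alone raised that median by 0.28 and called 420 genes lower and 5419 higher, and upper-quartile factors called 1365 lower and 1137 higher.

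Every GIMAP gene had a lower level in all 3 knockout libraries than in any wild type library. The summed level of the 8 genes was 112.9, 153.9 and 147.7 CPM in wild type and 68.8, 56.2 and 72.4 CPM in knockout. The groups did not overlap, wild type replicate 1 was the lowest of its group and knockout replicate 2 the lowest of all. The means were 138 ± 22.1 and 65.8 ± 8.49 CPM (SD, n = 3), so that knockout stood at 47.6% of wild type. The sums rested on 2418, 4086 and 3409 counts in wild type and 1338, 1061 and 906 in knockout. In RNA from a whole fraction, fewer cells of a type and less RNA per cell cannot be told apart. Of the 8 members 7 passed the threshold of edgeR as lower and 0 as higher, against the 5.97% lower over all genes that stands above. In the authors' deposited table, made with DESeq2, the same 7 members were lower at an adjusted p under 0.05, where 6.72% of all genes were. All 8 members had groups that did not overlap with knockout below, as had 16.0% of all genes tested. The median log2 fold change of the members was -1.10, and 2.81% of the genes tested had a lower value. Nothing is read from these counts, since the difference itself chose the family.

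**Figure D1:**
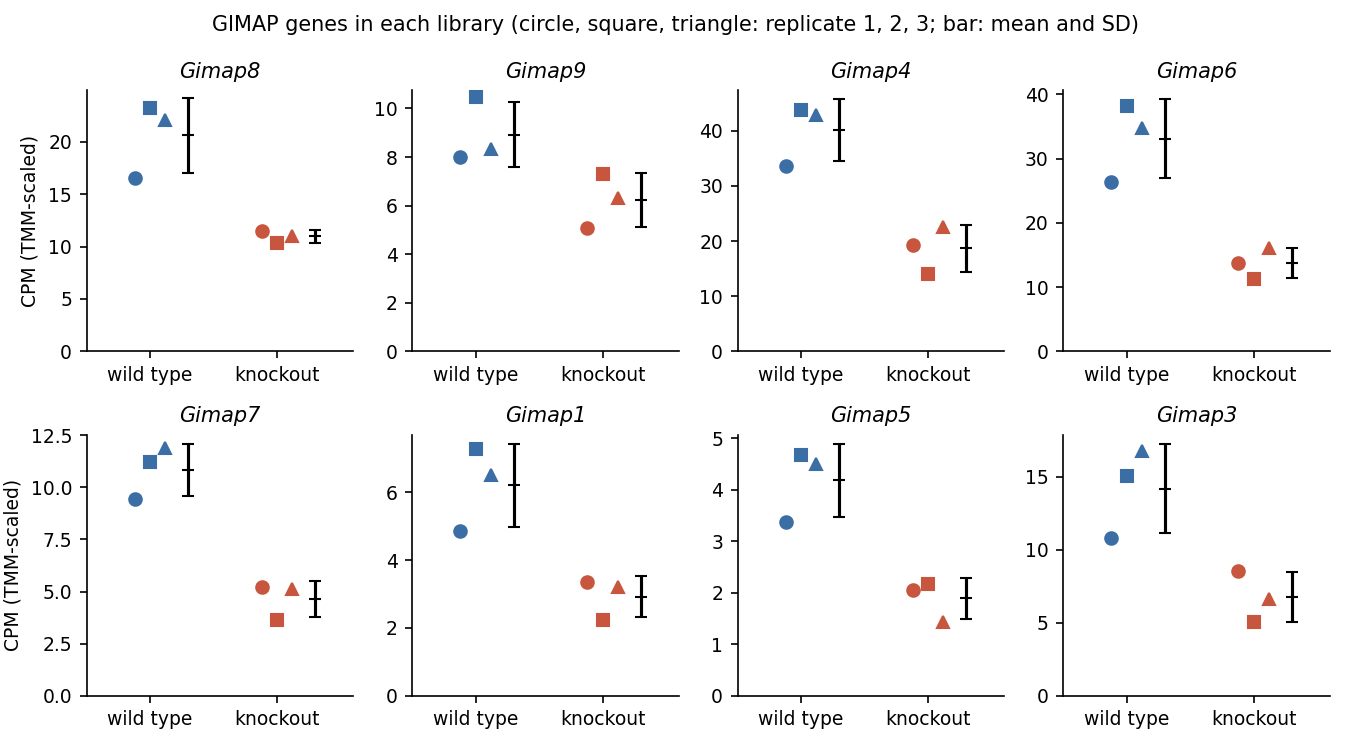
Level of each GIMAP gene in CPM in the 3 wild type and 3 Lingo3-/- libraries, with symbols for replicates 1, 2 and 3 and a bar for the mean and SD. The knockout points lie below the wild type points in every panel, with the narrowest gap in Gimap9.

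Gimap4, the member tied to the timing of T cell death, is the member with the most counts in every library. Its level was 33.6, 43.7 and 42.9 CPM in wild type and 19.3, 14.1 and 22.6 CPM in knockout. The lowest wild type library stood above the highest knockout library, and knockout reached 46.6% of wild type. The means were 40.1 ± 5.64 and 18.7 ± 4.29 CPM (SD, n = 3), and the log2 fold change was -1.11 ± 0.17 (SE). Gimap6, the partner of the autophagy machinery, showed the largest difference of the family. It stood at 26.4, 38.2 and 34.7 CPM in wild type and 13.8, 11.3 and 16.1 CPM in knockout. Knockout was at 41.4% of wild type, with means of 33.1 ± 6.08 and 13.7 ± 2.36 CPM (SD, n = 3) and a fold change, on the log2 scale, of -1.28 ± 0.16 (SE).

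Gimap8, the member with 3 nucleotide-binding stretches, was nearly level among the knockout libraries. It had 16.5, 23.2 and 22.0 CPM in wild type and 11.5, 10.3 and 11.0 CPM in knockout. The knockout values spanned little more than 1 CPM, the closest agreement of any member in that group relative to its mean. Knockout was at 53.2% of wild type, a log2 fold change of -0.91 ± 0.14 (SE). Gimap7 had 9.43, 11.2 and 11.9 CPM in wild type and 5.19, 3.66 and 5.11 CPM in knockout. Its knockout level was 42.9% of wild type, close to that of Gimap6, with a log2 fold change of -1.23 ± 0.17 (SE).

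The near copies Gimap3 and Gimap5 stood in knockout at 47.5 and 45.2% of their wild type levels. Gimap3 had 10.8, 15.1 and 16.8 CPM in wild type and 8.54, 5.09 and 6.63 CPM in knockout. Its wild type replicate 1 and knockout replicate 1 were the nearest values across the groups. The log2 fold change was -1.07 ± 0.21 (SE). Gimap5, the gene of the lymphopenic rat, had the fewest counts of the family, with 3.36, 4.67 and 4.50 CPM in wild type and 2.06, 2.17 and 1.44 CPM in knockout. These values rest on 72 to 124 counts in wild type and 18 to 41 in knockout, so it is also the least precisely measured. The log2 fold change was -1.12 ± 0.24 (SE).

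Gimap1, which mature T and B cells need in the mouse, had 4.86, 7.27 and 6.50 CPM in wild type and 3.34, 2.22 and 3.19 CPM in knockout. Knockout was at 47.1% of wild type and the groups did not overlap (log2 fold change -1.10 ± 0.22, SE). Its antisense gene Gimap1os had 42, 71 and 55 counts in wild type and 41, 20 and 13 in knockout. In CPM these groups overlapped through knockout replicate 1, and the log2 fold change of -0.71 ± 0.31 (SE) did not pass the threshold (edgeR adjusted p = 0.137). Without knockout replicate 1 it passed, with an edgeR adjusted p of 0.0298.

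Gimap9 was the member least lowered. It had 7.99, 10.5 and 8.32 CPM in wild type and 5.09, 7.31 and 6.31 CPM in knockout. The groups were apart by less than 1 CPM, between wild type replicate 1 and knockout replicate 2. Knockout was at 69.9% of wild type, with means of 8.92 ± 1.35 and 6.24 ± 1.11 CPM (SD, n = 3), and the log2 fold change of -0.52 ± 0.18 (SE) did not pass the threshold. The library order also differed from that of the family, since knockout replicate 2 had the lowest family sum and the highest Gimap9 level among the knockout libraries. Whether Gimap9 differed less from wild type than the other members was not tested. With library totals alone as the scale, 6 of the 8 members kept apart, as did 4.40% of all genes tested with knockout below, and the groups of Gimap3 and Gimap9 overlapped. On that scale Gimap9 had 6.84 to 9.92 CPM in wild type and 5.76 to 8.23 CPM in knockout. Without knockout replicate 3, Gimap3 no longer passed the threshold and 6 of the members did.

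Levels of different genes were compared per kilobase of exon. In wild type Gimap4 led with 21.8 ± 3.07 CPM per kilobase (SD, n = 3), above 93.1% of the genes tested. Gimap6 followed with 9.47 ± 1.74 CPM per kilobase (SD, n = 3), above 82.4% of them. Neither range overlapped that of the next gene. Gimap8, Gimap3, Gimap9 and Gimap7 stood at 5.57, 5.51, 5.43 and 4.66 CPM per kilobase. The range of each overlapped those of the other 3, but ranges do not compare genes within a library. Gimap8 and Gimap3 each stood above Gimap7 in every wild type library. Gimap1 at 2.02 and Gimap5 at 1.01 CPM per kilobase came last, each apart from its neighbours, and Gimap5 stood above 25.9% of the genes tested.

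In knockout Gimap4 again led, with 10.2 ± 2.34 CPM per kilobase (SD, n = 3), and Gimap1 and Gimap5 again came last, with 0.950 and 0.455 CPM per kilobase. Between them the ranges of Gimap6, Gimap9, Gimap8, Gimap3 and Gimap7 overlapped from each to the next, at 3.93, 3.80, 2.96, 2.62 and 2.00 CPM per kilobase. Gimap6, apart from these genes in wild type, overlapped Gimap9 and Gimap3 in knockout and stood above Gimap8 and Gimap7. Within each knockout library Gimap6 also stood above Gimap3. The range of Gimap7 overlapped that of Gimap3 alone and lay below those of Gimap8, Gimap9 and Gimap6. Within each knockout library Gimap7 lay below Gimap3 as well. The middle of the order depends on the length used. With the longest transcript as length, 3 members of the wild type order changed place. Gimap7, at 7.43 to 9.35 CPM per kilobase, then came directly after Gimap6 and overlapped its range of 8.30 to 12.02. Within each wild type library Gimap6 still stood above Gimap7. On that length Gimap9 stood above Gimap6 in knockout, at 4.51 and 4.32 CPM per kilobase.

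**Figure D2:**
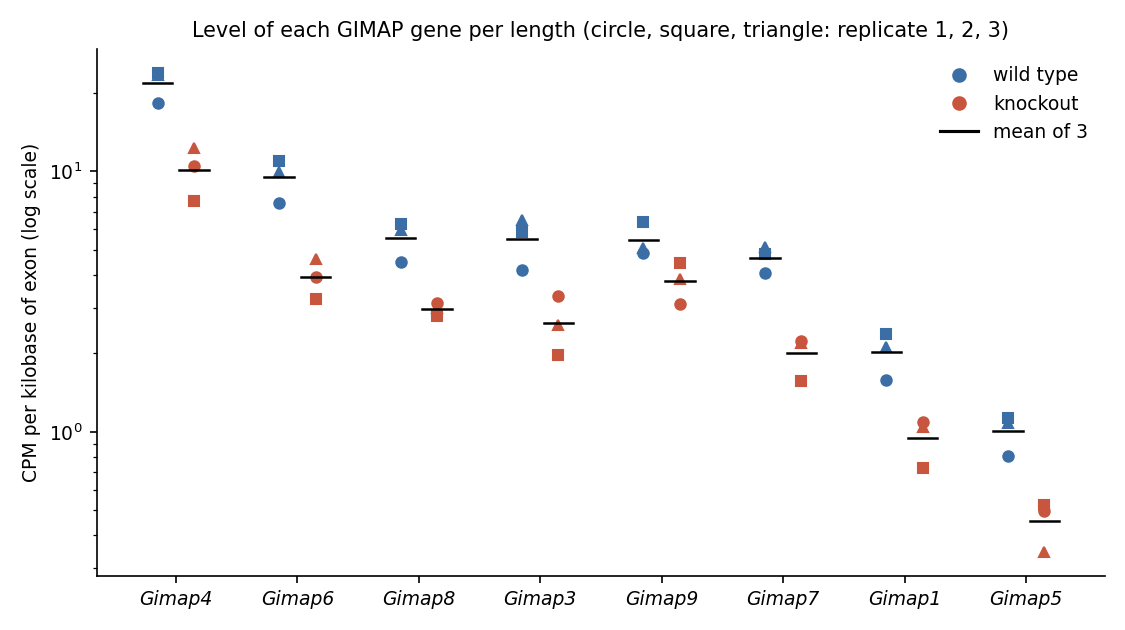
Level of each GIMAP gene per kilobase of exon (CPM per kilobase, log axis) in wild type and Lingo3-/- libraries, with a point for each library and a bar for the mean. Gimap4 is highest and Gimap5 lowest in both genotypes, and Gimap6 is apart from the next gene in wild type and overlaps Gimap9 in knockout.

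The share of each member in the family's counts was set out by library, and the ranges of the genotypes did not overlap for 3 of the 8 members. These differences were not tested. Gimap9 held 7.07, 6.80 and 5.63% of the family's counts in wild type and 7.40, 13.0 and 8.72% in knockout. Wild type replicate 1 and knockout replicate 1 were close. Gimap8 took 14.6 to 15.1% in wild type and 15.2 to 18.4% in knockout, and Gimap6 took 23.4 to 24.8% and 20.03 to 22.2%. For each of these 3 members the exact binomial (Clopper-Pearson) 95% intervals of the nearest libraries of the genotypes overlapped. For Gimap8 they were 14.02 to 16.2% in wild type replicate 2 and 12.95 to 17.7% in knockout replicate 3. Taking the nearest libraries favours overlap, so it does not show whether the shares differed beyond counting error. The interval of Gimap9 in wild type replicate 1 was 6.08 to 8.17%. That of knockout replicate 1, 6.05 to 8.93%, overlapped it, and that of knockout replicate 2, 11.04 to 15.2%, lay above it. For Gimap1, Gimap3, Gimap4, Gimap5 and Gimap7 the ranges overlapped. Gimap4 took 29.1 and 28.1% on average and Gimap3 10.2% in both genotypes. Shares of 1 sum are not independent of each other, and they do not depend on the scaling of the libraries.

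**Figure D3:**
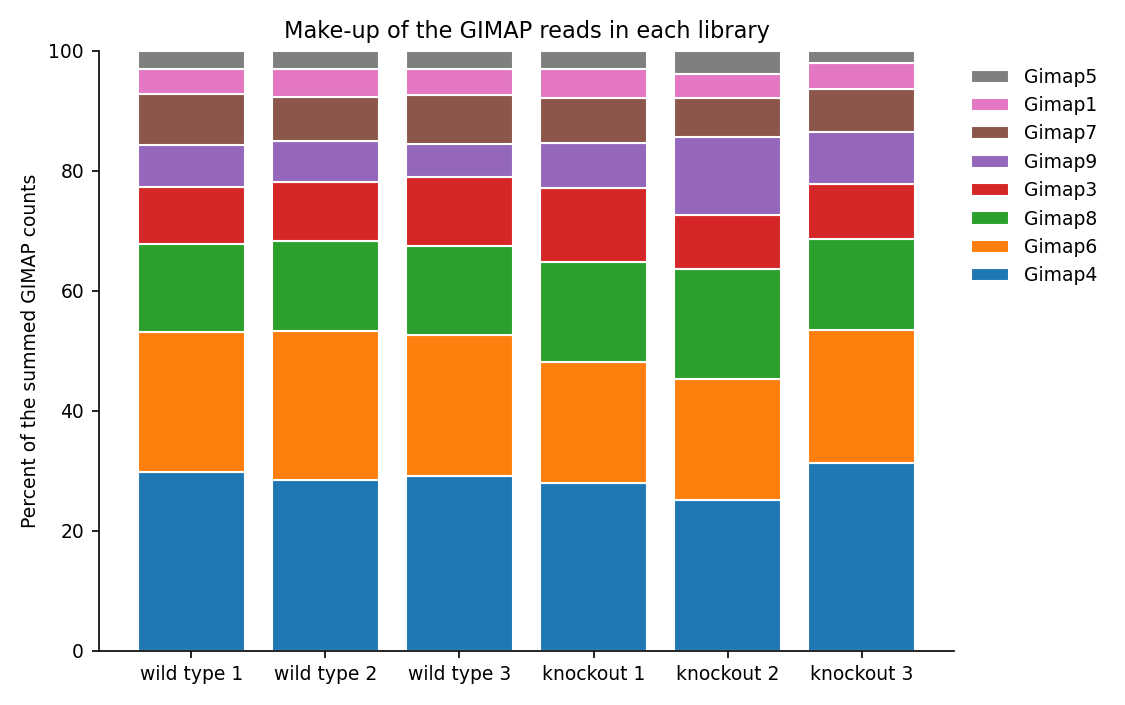
Share of each GIMAP gene in the summed counts of the 8 genes, in percent, for each of the 6 libraries. Gimap9 reaches 13.0% in knockout replicate 2 against 5.63 to 7.07% in wild type.

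Other genes in and around the cluster were then examined, since they are not members of the chosen family. Between the ends of the cluster and within 250 kb of either end the annotation holds 40 other genes. Of them, 24 are in the count table and 13 could be tested. Among the 13 is Gimap1os, which lies inside the cluster and whose reads may not be fully separated from those of Gimap1. Of these 13, 0 were lower and 0 higher by edgeR's quasi-likelihood test after adjustment, and 3 were lower and 2 higher at an unadjusted p under 0.05. By limma-voom 0 passed, and by DESeq2 1 was lower (Rarres2) and 2 were higher (Tmem176b and Aoc1). Their median log2 fold change was -0.08, or 0.20 with library totals alone. Rarres2, the gene of the chemoattractant chemerin, had 1060, 1251 and 481 counts in wild type and 421, 213 and 206 in knockout. In CPM wild type replicate 3 lay among the knockout values, and the log2 fold change of -1.25 ± 0.43 (SE) did not pass (edgeR adjusted p = 0.129). It passed without wild type replicate 3 (edgeR adjusted p = 0.0115).

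On the other side of the cluster, the membrane protein genes Tmem176b and Tmem176a had log2 fold changes of 0.56 and 0.44 (edgeR adjusted p = 0.0712 and 0.174). Aoc1, which encodes the diamine oxidase of the gut, had 0.46 (edgeR adjusted p = 0.0639). Without wild type replicate 1 these 3 genes were higher (edgeR adjusted p = 0.0141, 0.0248 and 0.00480). With library totals alone they and Repin1 were higher. Lrrc61 and Zfp775 had -0.56 and -0.52 and did not pass (edgeR adjusted p = 0.121 and 0.186), and Krba1 had -0.09. The plot along the cluster shows these genes with values of either sign around a stretch in which each GIMAP gene is negative.

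**Figure D4:**
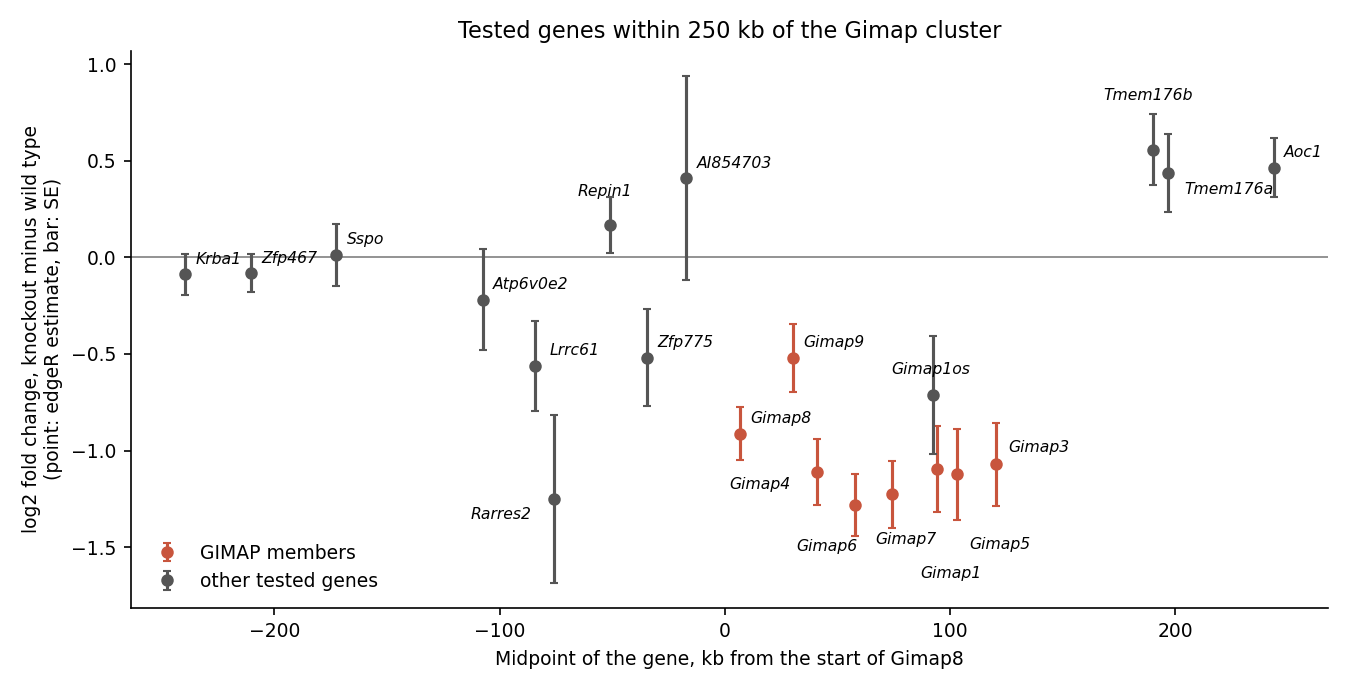
Log2 fold change, knockout minus wild type, of the tested genes of the GIMAP cluster and its flanks against distance from the start of the cluster in kb, with bars for the SE. The 8 members lie between -1.28 and -0.52. The 13 other tested genes, with Gimap1os inside the cluster among them, lie on both sides of 0 with a median of -0.08.

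Markers of lymphocytes were lower in the same knockout libraries. Of 18 T cell genes, 16 fell and 0 rose, with a median log2 fold change of -1.14. Their summed level was 214 to 240 CPM in wild type and 72.8 to 128 CPM in knockout, 47.2% of wild type. Cd3e, a chain of the T cell receptor complex, had 12.05, 14.5 and 14.9 CPM in wild type and 8.74, 4.93 and 7.03 CPM in knockout. As for the family sum, knockout replicate 2 was the lowest library, and the fall of Cd3e by 1.00 on the log2 scale passed (edgeR adjusted p = 0.00687). The coreceptor genes Cd8b1 and Cd4 fell by 2.40 and 2.08, the costimulatory receptor gene Cd28 by 1.95 and the adaptor gene Lat by 1.42 on the log2 scale. Cd4 rested on few counts, 38, 55 and 49 in wild type and 9, 12 and 3 in knockout. Lat lost its call when wild type replicate 2, wild type replicate 3 or knockout replicate 3 was left out. Cd8a had -0.98 and did not pass (edgeR adjusted p = 0.0695).

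Of 14 genes of intraepithelial and cytotoxic lymphocytes, 12 fell and 0 rose (median log2 fold change -1.04), among them Gzmb by 1.37, Prf1 by 1.34, Cd7 by 1.21 and Xcl1 by 1.19 on the log2 scale. Prf1, the gene of perforin, lost its call when wild type replicate 2, knockout replicate 2 or knockout replicate 3 was left out. Of 12 genes of recirculating and naive lymphocytes, 10 fell and 0 rose (median -1.24), with Ccr7 at -1.76, S1pr1 at -1.61 and Lef1 at -1.52, all past the threshold. Ccr7, a homing receptor, lost its call without wild type replicate 2 or 3. Of 12 pan-leukocyte genes, 11 fell and 0 rose (median -1.09), with summed levels of 434 to 537 CPM and 189 to 295 CPM. Ptprc, which encodes CD45, fell by 0.86, Coro1a by 1.43, Arhgdib by 1.27 and Cd52 by 1.18 on the log2 scale.

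B cell genes were lower with a wider spread. Of 13, 7 fell and 0 rose (median log2 fold change -1.63), and their summed level was 62.5 to 149 CPM in wild type and 25.0 to 43.5 CPM in knockout. The transcription factor gene Pax5 fell by 2.16 and Cd79b, of the B cell receptor, by 1.67 on the log2 scale. Cd79b lost its call without knockout replicate 2 or 3. With wild type replicate 1 left out, 12 B cell genes fell, with wild type replicate 2 or 3 left out 4, with knockout replicate 2 left out 2 and with knockout replicate 3 left out 1. With all libraries DESeq2 called 12 of them lower and edgeR with no filter 11. Of 7 tested plasma cell genes 2 fell, Mzb1 and Igkc, and 0 to 3 did without single libraries (median -0.75), with 1 by DESeq2 and by limma-voom. Of 7 tested genes of natural killer and innate lymphoid cells, Klrb1c and Gata3 fell and Kit rose (median -0.55). Gata3 lost its call when any library other than wild type replicate 2 was left out, and DESeq2 called 1 gene of this list lower.

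Other cell types could also carry GIMAP transcripts, and their markers are given for that reason. Of 12 endothelial genes 6 were abundant enough to test, and Pecam1 and Kdr fell, by 0.99 and 1.39 on the log2 scale (median of the 6, -0.64). Their summed level was 20.01 to 30.9 CPM in wild type and 16.2 to 18.1 CPM in knockout. The endothelial cadherin gene Cdh5 had 1 to 8 counts per library, Emcn 0 to 5 and Cldn5 0 to 8. Of 12 myeloid genes, Itgax fell and Cd14 rose, and the summed level ran from 91.8 to 112 CPM in wild type and from 70.2 to 247 CPM in knockout (median 0.71). Itgax lost its call with any 1 of wild type replicates 2 and 3 and knockout replicates 1 and 2 left out, and 5 myeloid genes were higher without knockout replicate 2, 4 with no filter and 2 by DESeq2. Of 11 epithelial genes, 0 fell and 1, the keratin gene Krt18, rose (median 0.04), and their summed level was 4464 to 5481 CPM and 5244 to 6296 CPM. Epcam had 0.31 and did not pass (edgeR adjusted p = 0.158). Krt18 lost its call without knockout replicate 3, and 2 epithelial genes were higher by DESeq2 and 6 with library totals alone. In the lymphocyte, leukocyte and endothelial lists with 0 genes higher, 0 were higher at an unadjusted p under 0.05 by edgeR, DESeq2 or limma-voom, and in the epithelial list 0 were lower. With library totals alone 1 endothelial gene and 1 plasma cell gene were higher after adjustment, and without knockout replicate 1 there was 1 epithelial gene lower. The part of each cell type in the GIMAP difference was not tested.

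GIMAP counts were also set against the counts of other lists in the same library. Per 100 counts of the 18 T cell genes there were 52.8, 64.2 and 63.7 GIMAP counts in wild type and 53.6, 77.2 and 59.4 in knockout. The ranges overlapped, with means of 60.2 ± 6.41 and 63.4 ± 12.3 (SD, n = 3). Per 100 pan-leukocyte counts there were 28.4 ± 2.29 GIMAP counts in wild type and 27.7 ± 3.83 in knockout (SD, n = 3), also overlapping. Per 100 epithelial counts there were 2.06, 3.45 and 2.90 in wild type and 1.31, 1.07 and 1.15 in knockout, and here every knockout library was lower. Per 100 B cell counts there were 181, 103 and 163 in wild type and 158, 161 and 289 in knockout. These ratios need no scaling between libraries, and both sides of each were chosen with results of these libraries known.

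**Figure D5:**
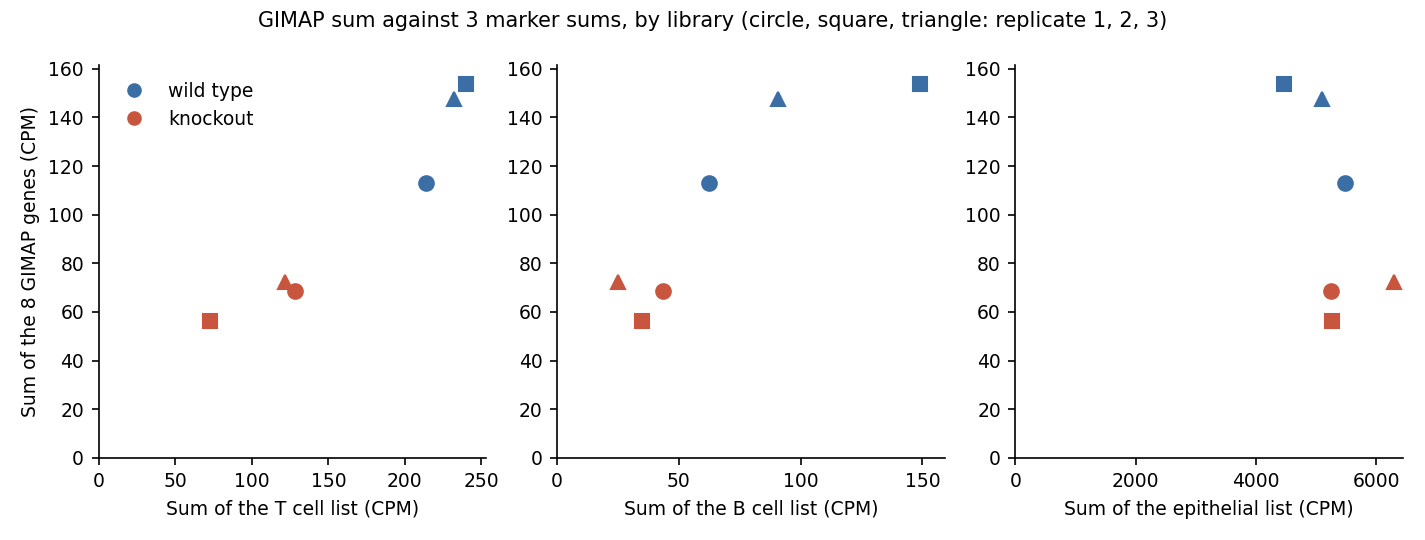
Summed GIMAP level (CPM) against the summed level of the T cell, B cell and epithelial lists (CPM), with a symbol for each of the 6 libraries in the colour of its genotype. The knockout libraries lie low on both axes for T cell and B cell genes and low on the GIMAP axis alone for epithelial genes.

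Genes whose products are reported to act with GIMAP proteins did not pass the test. Of 11 such genes, from the Bcl-2 family, the GABARAP family and Gsk3b, 0 fell and 0 rose by edgeR after adjustment, by DESeq2 and by limma-voom, and at an unadjusted p under 0.05 edgeR had 0 lower and 1 higher. Their median log2 fold change was -0.10. Bcl2, the survival factor of resting lymphocytes, had -0.26, and Gabarapl2, the autophagy partner of Gimap6, had -0.10. All of these genes are also expressed outside lymphocytes. Without knockout replicate 1, 1 of them was lower, and without wild type replicate 1, 1 was higher. With library totals alone 4 were higher, and with no filter 1 was lower and 1 higher.

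A list of other immune GTPases had calls in both directions, and most of these calls, higher and lower, were lost in some fits. Of 14 interferon-induced GTPase genes, Iigp1 rose by 1.44, Irgm1 by 0.53 and Irgm2 by 0.49 on the log2 scale, and Gbp8 and Gbp9 fell by 0.52 and 0.56 (median 0.18). These proteins restrict intracellular pathogens. Iigp1 kept its call with each library left out in turn. The other 4 calls were each lost without knockout replicate 2 or knockout replicate 3, that of Irgm2 also without wild type replicate 3, that of Gbp9 also without wild type replicate 1 or 2, and that of Gbp8 whichever library was left out. With library totals alone 0 of the 14 were lower and 6 higher. With the replicate number as a block, and with counts thinned to the smallest total, 0 were lower and 3 higher, and with no filter 3 were lower and 5 higher.

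Of 14 transcription factors of lymphocytes, 10 fell and 0 rose, with a median log2 fold change of -0.94. Lef1 fell by 1.52, Gata3 by 1.40, Satb1 by 1.31 and Ets1 by 1.17 on the log2 scale. Ets1 had 1473, 2249 and 1774 counts in wild type and 785, 469 and 467 in knockout, and whether it acts on the GIMAP genes was not tested. Ikzf1, the gene of Ikaros, fell by 1.13 and Runx3 by 0.90, while Runx1 and Bach2 had -0.06 and 0.07 and did not pass. The 10 calls became 6 without wild type replicate 3 or knockout replicate 2 and 5 without knockout replicate 3, and with library totals alone they were 6. Lef1, Satb1, Ets1, Tcf7, Klf2 and Bach2 are also on the list of recirculating and naive lymphocytes, and Gata3 and Eomes on that of natural killer and innate lymphoid cells.

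Among 14586 other genes with a mean of at least 1 CPM, the profile over the 6 libraries most like that of the summed family was that of Fam78a. Likeness was the root mean square difference of log2 CPM after each profile was centred on its own mean, which was 0.0594 for Fam78a against a median of 0.591 over all genes compared. Fam78a had 9.43, 11.4 and 11.6 CPM in wild type and 5.40, 4.50 and 5.43 CPM in knockout. The next in likeness were Gm15347 at 0.0700, the T cell inhibitory receptor gene Lag3 at 0.0825, Cd200r4 at 0.0876, Ccdc9b at 0.0885, Cytip at 0.0928, Foxo6 at 0.102 and the septin gene Sept6 at 0.104. Of the members, Gimap1 lay 0.0925 from the sum of the other 7, Gimap5 0.279 and Gimap9 0.416. Gimap9 was thus the member least like the rest, and its distance was below the median of all genes compared. These distances come from 6 libraries in 2 groups and describe likeness only.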

How the data were processed

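Total RNA of 6 libraries was depleted of ribosomal RNA and made into stranded libraries, per the labels' protocols. Trimmomatic 0.39, STAR, HTSeq, DESeq2 and the build GRCm38 are named per the submitters' processing notes. Not given in the sources used here are other versions, the strand setting and the annotation release. The authors' deposited counts are raw whole numbers per gene. The HTSeq summary lines, 53.6 to 60.1% of the reads per library, were left out of the library sizes, and ambiguous reads were 1.23 to 1.57%. The authors' deposited comparison gives normalized signal values, which are the counts times 1 factor per library (largest relative deviation 4.97e-15). Its log2 fold changes, their standard errors and Wald statistics (score columns) and its p-values are those of the authors' DESeq2 run, per the file headers, and were used only to describe.

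Genes kept by filterByExpr (minimum count 10, minimum total 15) were scaled with TMM and tested with edgeR 4.0.16 (robust quasi-likelihood, 2-sided, genotype as the only term, R 4.3.3), with Benjamini-Hochberg adjustment over all 16856 genes and a threshold of 0.05. The alternatives were other scalings, filters and thresholds, DESeq2 1.42.0, limma-voom (limma 3.58.1), nuclear protein-coding genes only, a block for the replicate number, leaving out each library, other lengths and other denominators. Counts thinned to the smallest total and lengths of unshared exon bases were added after the data were seen. The fit was tested on simulated counts. Log2 CPM used a prior count of 2. Of the identifiers 98.0% were in GENCODE M21. Among the 3 pairs of libraries within each genotype, none agreed within sampling noise (chi-square per degree of freedom at least 8.47). Floors and binomial intervals of shares cover counting error only, since reads carry no molecular identifiers, while the standard errors of fold changes come from the edgeR fit and include variation between libraries.

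The members and the 13 comparison lists were chosen with earlier results of these data known. The rule named all 8 members, other genes called Gimap, genes within 250 kb, Cd3e, Cd8a, Cd4, Ptprc, Pecam1 and Epcam, up to 4 called genes per list with the largest change, nearly undetected markers and the 8 most alike genes. Bcl2, Gabarapl2, Irgm2, Ikzf1, Runx1, Runx3 and Bach2 were named after their values were seen. Some genes of the rule are not reported here.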

Additional observations from a re-analysis of the deposited data

How the results depend on the processing

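In 16 alternative fits every GIMAP member stayed lower in knockout. Only library totals moved the median log2 fold change of the members beyond its error with all libraries (-0.83), where the median over all genes tested also rose by 0.28; the summed level in knockout was then 57.5% of wild type. Without single libraries the median ran from -1.22 to -0.93, the summed level from 43.6 to 51.1% and the ratio to T cell counts, knockout over wild type, from 0.938 to 1.13 (1.05 with all libraries, 1.36 with B cell counts as denominator). Members past the threshold numbered 6 to 8. Gimap3 missed it without knockout replicate 3 (edgeR adjusted p = 0.0597, lowest over the alternatives 6.14e-10). Gimap9 passed with no filter (0.0285), with nuclear protein-coding genes only (0.0494) and with upper-quartile factors (0.0447), and its highest adjusted p was 0.373. Of the other tested genes in and around the cluster, 4 were higher with library totals and 3 with no filter. With the replicate number as a block 2 of them were higher (Tmem176b and Aoc1), and with thinned counts 1. The longest transcript as length moved 3 members in the wild type order and brought the ranges of Gimap6 and Gimap7 to overlap. The genes changed numbered 2596, or 5839 with library totals, 3942 at an adjusted p of 0.1 and 1124 to 2686 without single libraries (1124 without knockout replicate 3, 1371 without knockout replicate 2, 1672 and 1679 without wild type replicates 2 and 3). With counts thinned to the smallest total, 7 members were lower with a median of -1.10.

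With the replicate number as a block, 2061 genes changed, 7 members were lower and their median was -1.10. Deviations of libraries with the same number correlated at -0.01, -0.12 and -0.10, and those with different numbers at -0.12 to 0.22. The labels do not pair libraries by number, and with 3 libraries per genotype these values cannot settle whether any were handled together. The block changed no member's call, and with it 0 in place of 2 interferon-induced GTPase genes were lower. Depth limits Gimap5 most, with 18 counts in its shallowest library.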
